A study of Mus musculus with 20 samples.

Results

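Livers of wild-type (WT) mice that drank water with cadmium chloride (CdCl2, 100 mg/L) were set against control livers, over both lengths of exposure. The members are all 10 input libraries among the 20 samples of the series. There are 6 from exposed livers, 3 at 3 months and 3 at 9 months, and 4 from controls, numbered 2 and 3 at 3 months and 1 and 2 at 9 months. An input library is made from fragmented RNA without the antibody step of m6A sequencing, and its counts measure RNA abundance. The other 10 samples, whose titles lack the word input, were not analysed here. The labels state no strain, sex, age at the start or hour at which livers were taken. Nothing in the labels tells if replicates were separate animals, and each p-value measures only the spread between these samples. The question asked of each gene was whether one cadmium effect common to both times differed from 0, with time as a covariate.

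The circadian clock runs in nearly every liver cell as a loop of transcription. CLOCK, or its relative NPAS2, pairs with BMAL1, the product of Arntl, and the pair drives the Per and Cry genes from E-box elements. The PER and CRY proteins then block the pair. The same pair drives Dbp, Tef and Hlf, whose products activate genes through D-box elements, and Nfil3 encodes a repressor that binds those elements. NR1D1 and NR1D2 repress, and the ROR factors activate, Arntl and Nfil3 through ROR elements. Transcripts of this loop rise and fall over each day in liver, and the phases of its arms differ.

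The RefSeq promoter windows of 6 clock genes, a part of those whose libraries separated by exposure, are shown with the elements through which the loop works. Each window runs 5′ to 3′ on the gene's strand, from 250 bases before to 50 after an annotated start (GRCm38.p6). Capitals mark the E-box CACGTG, the D-box TTATGTAA or the ROR element TAGGTCA, searched on both strands with none of the matches overlapping.
Dbp, chr7:45704997-45705296, plus strand: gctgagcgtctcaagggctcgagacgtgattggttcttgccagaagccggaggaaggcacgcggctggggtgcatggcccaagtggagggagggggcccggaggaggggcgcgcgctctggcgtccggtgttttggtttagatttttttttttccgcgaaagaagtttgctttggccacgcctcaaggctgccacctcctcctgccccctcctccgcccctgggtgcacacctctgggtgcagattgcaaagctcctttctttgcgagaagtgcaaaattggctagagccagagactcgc
Tef, chr15:81811164-81811463, plus strand: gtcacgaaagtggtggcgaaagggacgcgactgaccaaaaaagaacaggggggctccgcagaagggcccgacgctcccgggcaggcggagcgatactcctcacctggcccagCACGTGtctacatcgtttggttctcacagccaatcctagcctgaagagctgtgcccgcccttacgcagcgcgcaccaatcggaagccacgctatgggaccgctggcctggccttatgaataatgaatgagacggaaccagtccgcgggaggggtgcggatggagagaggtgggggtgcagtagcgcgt
Per3, chr4:151044616-151044915, minus strand: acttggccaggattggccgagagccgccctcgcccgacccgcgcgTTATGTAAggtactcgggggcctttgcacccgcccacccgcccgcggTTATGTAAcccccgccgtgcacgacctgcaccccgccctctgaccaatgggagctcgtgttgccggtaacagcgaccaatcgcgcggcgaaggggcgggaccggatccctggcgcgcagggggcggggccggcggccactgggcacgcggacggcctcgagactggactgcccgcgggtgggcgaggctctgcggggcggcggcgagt
Ciart, chr3:95882179-95882478, minus strand: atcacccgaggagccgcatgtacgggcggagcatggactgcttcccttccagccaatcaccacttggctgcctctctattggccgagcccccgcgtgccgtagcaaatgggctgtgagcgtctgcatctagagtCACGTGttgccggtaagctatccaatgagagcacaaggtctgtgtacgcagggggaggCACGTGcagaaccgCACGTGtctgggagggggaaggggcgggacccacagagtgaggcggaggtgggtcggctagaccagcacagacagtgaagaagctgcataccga
Arntl, chr7:113207261-113207560, plus strand: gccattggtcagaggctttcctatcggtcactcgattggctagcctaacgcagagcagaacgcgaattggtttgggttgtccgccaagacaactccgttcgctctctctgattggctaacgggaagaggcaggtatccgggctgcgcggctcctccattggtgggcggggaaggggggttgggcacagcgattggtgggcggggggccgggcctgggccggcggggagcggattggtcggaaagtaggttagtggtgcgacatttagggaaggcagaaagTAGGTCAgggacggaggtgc
Nfil3, chr13:52980990-52981289, minus strand: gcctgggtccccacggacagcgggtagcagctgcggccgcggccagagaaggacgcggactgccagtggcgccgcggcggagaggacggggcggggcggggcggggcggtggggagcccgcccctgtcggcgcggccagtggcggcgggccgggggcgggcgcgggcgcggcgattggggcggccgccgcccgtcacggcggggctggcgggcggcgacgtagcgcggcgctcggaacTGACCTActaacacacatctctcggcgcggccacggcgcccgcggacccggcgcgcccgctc

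The Ciart window held 3 E-boxes and the Tef window held 1. The Per3 window held 2 D-boxes, and the Arntl and Nfil3 windows held 1 ROR element each, in Nfil3 on the reverse strand. Over all 32851 windows of this length in the table, 7.15% held the E-box, 0.938% the D-box and 2.61% the ROR element. The windows of Dbp, Nr1d2, Cdkn1a, Chka and Clpx did not hold these letters, which says nothing about sites elsewhere. Of these only the Dbp window is shown. Cry2, Bhlhe41 and Csnk1d, clock genes that also separated by exposure, were not searched. Where a gene had 2 windows, the one nearest to the start of the counted transcript was used. The windows of Arntl, Chka and Nfil3 belong to annotated starts 24210, 13049 and 846 bases from that of the counted transcript, which therefore lies outside them. The counted Tef transcript starts inside its window, 185 bases before the annotated start. The E-box, at -138 from the annotated start, thus lies within the counted transcript and not upstream of it. For Per3 and Ciart the starts were 48 and 14 bases apart.

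With each gene counted by its most counted transcript, totals over genes ran from 3958171 to 8912898 per library, and 12730 to 16519 genes were detected. Counts over all transcripts summed to between 11354034 and 25860245 per library. Abundance is given as CPM, counts scaled to a common library total, and 3 counts in a library corresponded to 0.352 to 0.663 CPM. Hepatocyte markers summed to between 97690 and 140000 CPM in every library, and Alb, the serum albumin gene, ran from 30560 to 68210 CPM over the 10 libraries. In bulk tissue, fewer cells of a type and less RNA per cell cannot be told apart. The 3-month controls stood apart from the rest, with a median correlation of log2 CPM with the other libraries of 0.871 and 0.886, against 0.919 to 0.937 for the remaining 8. Transcripts of 16 pancreas marker genes summed to 10010 CPM (9-month control 2), 1961 CPM (exposed liver 1 at 9 months) and 261 CPM (3-month control 3). The other 7 libraries held 8.55 to 35.8 CPM. All 14 tested pancreas genes had a lower fitted level in exposed livers, 11 with an unadjusted p under 0.05, against 3.02% of all genes. The part of these libraries in the results was measured by leaving them out, as given below.

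Of 14067 genes tested with edgeR, 5 passed a Benjamini-Hochberg adjusted p of 0.05 for the shared effect, which is 0.0355% of them. Both genes that rose, Dbp and Tef, encode transcription factors of the proline and acidic amino acid-rich family that carry the clock's output. The 3 that fell were Cdkn1a, which encodes the cell cycle inhibitor p21, Chka, which encodes the choline kinase that starts phosphatidylcholine synthesis, and Clpx, which encodes the unfoldase subunit of a mitochondrial protease. At an unadjusted p under 0.05 there were 813 genes (5.78%), 388 of them higher (2.76%) and 425 lower (3.02%) in exposed livers. The median shared log2 fold change over all genes was -0.007.

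Dbp (gene ID 13170, chromosome 7 from 45705247 to 45710203 in the deposited table) was nearly absent from control livers. Its controls measured 0.211 and 0 CPM at 3 months, and 1.99 and 1.33 CPM at 9 months. Exposed livers had 10.2, 17.1 and 31.7 CPM at 3 months and 26.4, 37.4 and 27.3 CPM at 9 months. All 6 exposed livers lay above all 4 controls, which held 20 reads in all against 972. The shared log2 fold change (± SE) by which Dbp rose was 5.13 ± 0.65, a fold of 35.1, with an adjusted p of 0.013 in edgeR. At 9 months alone the ratio of summed counts, scaled for depth, was 19.4 (95% exact interval 12.3 to 32.5, counting error only). The adjusted p was 0.0522 without exposed liver 2 at 3 months and 0.0581 without exposed liver 2 at 9 months, and Dbp passed without each of the other 8 libraries.

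Tef (gene ID 21685, chromosome 15 from 81811229 to 81826863) rose from a control mean of 38.9 ± 14.7 CPM (SD, n = 4), reaching 187 ± 71.8 CPM in exposed livers (SD, n = 6). Its controls measured 23.6 and 29.1 CPM at 3 months, and 52.0 and 51.1 CPM at 9 months. Exposed livers had 99.6, 146 and 296 CPM at 3 months and 162, 248 and 170 CPM at 9 months, again with no overlap between the 4 and the 6. The shared log2 fold change was 2.33 ± 0.33, a fold of 5.01, with an adjusted p of 0.0244 in edgeR. It was 2.77 ± 0.44 at 3 months and 1.91 ± 0.42 at 9 months. Without exposed liver 2 at 3 or at 9 months the adjusted p was 0.0811 and 0.088.

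Cdkn1a (gene ID 12575, chromosome 17 from 29093769 to 29100722) fell by 4.25 ± 0.62 on the log2 scale, a fold of 19.1, with an adjusted p of 0.0244 in edgeR. Controls had 17.5 and 96.0 CPM at 3 months and 24.8 and 41.2 CPM at 9 months. Exposed livers had 2.70, 0.819 and 4.06 CPM at 3 months and 0.314, 0.948 and 5.17 CPM at 9 months. Every exposed liver lay below every control, and the log2 fold changes at the times were -4.48 and -4.0. Cdkn1a is a target of p53 and of glucocorticoids in other settings. The call was lost without 3-month control 3 (adjusted p 0.0644), without exposed livers 1, 2 or 3 at 3 months (0.106, 0.109 and 0.061) and without exposed livers 1 or 2 at 9 months (0.0583 and 0.088).

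Clpx (gene ID 270166, chromosome 9 from 65294260 to 65330658) measured 411 and 434 CPM in the controls at 3 months, and 226 and 254 CPM at 9 months. Exposed livers had 152, 95.6 and 55.2 CPM at 3 months and 69.8, 56.6 and 115 CPM at 9 months, all below every control. It fell by 1.83 ± 0.28 on the log2 scale, a fold of 3.55, with an adjusted p of 0.027 in edgeR. That call did not hold without exposed livers 2 or 3 at 3 months (adjusted p 0.167 and 0.0603), 9-month control 1 (0.053), or exposed livers 1 or 2 at 9 months (0.11 and 0.0913).

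Chka (gene ID 12660, chromosome 19 from 3864822 to 3893923) measured 199 and 158 CPM in the controls at 3 months, against 80.2, 45.0 and 27.3 CPM after exposure. At 9 months the controls had 100.2 and 68.3 CPM and the exposed livers 27.3, 18.2 and 24.8 CPM. The groups were apart within each time, but exposed liver 1 at 3 months was above 9-month control 2. Chka fell by 1.83 ± 0.27 on the log2 scale, with an adjusted p of 0.0244 in edgeR and log2 fold changes of -1.81 and -1.84 at the times. It did not pass without exposed livers 2 or 3 at 3 months (adjusted p 0.149 and 0.0582), 9-month control 1 (0.0793), or exposed livers 1, 2 or 3 at 9 months (0.0908, 0.0913 and 0.074).

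**Figure D1:**
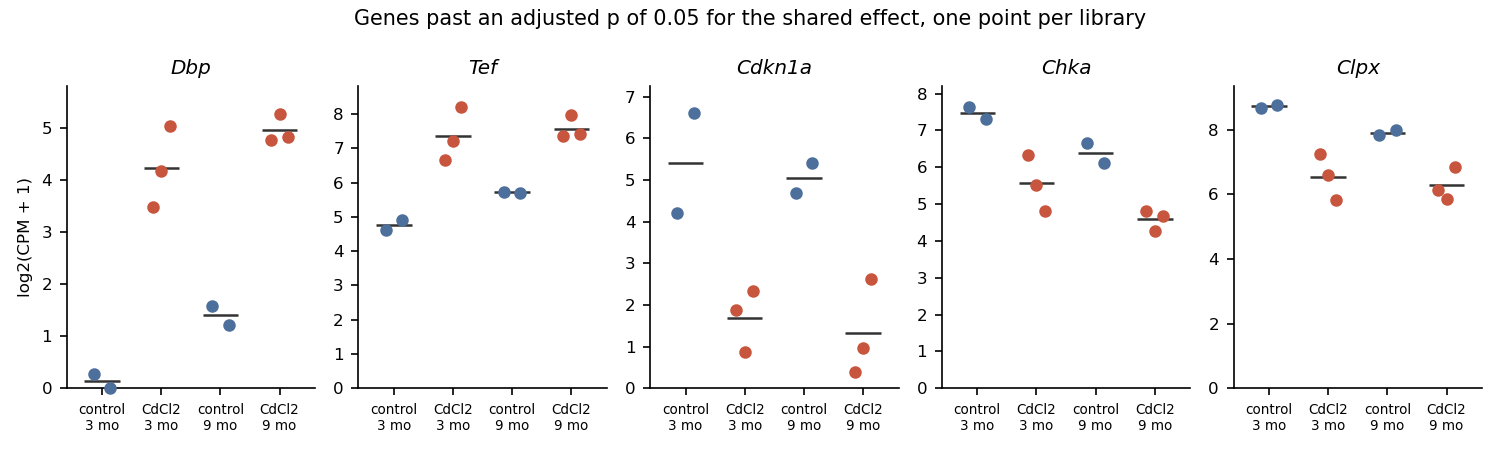
Abundance of Dbp, Tef, Cdkn1a, Chka and Clpx on the log2(CPM + 1) scale, one point per library and a line at each group's mean, with 2 controls (blue) and 3 exposed livers (red) at each of 3 and 9 months. Dbp and Tef were higher, and the other genes lower, in all exposed livers than in both controls of the same time.

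The calls depended on how transcripts were counted. Each gene carries the count of its most abundant transcript. With counts summed over a gene's transcripts, none of 15188 genes passed in edgeR, while 807 had an unadjusted p under 0.05 and the smallest adjusted p was 0.251. The 5 log2 fold changes were then 4.85 for Dbp, 2.39 for Tef, -4.14 for Cdkn1a, -1.92 for Chka and -1.81 for Clpx. With both 3-month controls left out, Dbp alone passed, and with 9-month control 2 and 9-month exposed liver 1 left out, Dbp, Tef and Rnf125, a ubiquitin ligase gene, passed.

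The circadian clock list, chosen with earlier results of these data known, held 21 genes, all tested. The hour at which livers were taken is not in the labels. Its part in the clock values, those of Dbp and Tef included, was therefore not tested. The median shared log2 fold change was 0.72, with 14 genes higher and 7 lower. Besides Dbp and Tef, which passed, 11 more had an unadjusted p under 0.05, so that 9 members were higher and 4 lower at that level. That is 61.9% of the list, against 5.78% of all genes. Under the 23 alternative settings, 11 to 16 members had an unadjusted p under 0.05. Complete separation of exposed livers from the controls of the same time, at each time, was seen for 7 members that were higher and 3 that were lower, against 1.37% and 1.39% of all genes.

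The 10 members with such separation were Dbp, Tef, Per3, Ciart, Nr1d2, Cry2 and Bhlhe41 on the higher side and Arntl, Nfil3 and Csnk1d on the lower. Among the repressors of the loop, Per3 measured 0.211 and 0 CPM in the controls at 3 months, and 5.09 and 8.35 CPM at 9 months. Its exposed livers had 12.8, 43.7 and 71.6 CPM at 3 months and 43.0, 50.1 and 35.2 CPM at 9 months. All 6 were above all 4 controls, and the shared log2 fold change of 4.14 ± 0.83 had an adjusted p of 0.137 in edgeR. With the average of both times in edgeR, Per3 passed (log2 fold change 5.72, adjusted p 0.00203). At 9 months the ratio of summed counts was 6.09 (95% exact interval 4.86 to 7.70), and only 1 read was counted in the 3-month controls.

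Ciart, which encodes a repressor of the CLOCK and BMAL1 pair, had no reads in either control at 3 months, and 0.442 and 0.398 CPM in those at 9 months. Its exposed livers had 1.95, 0.819 and 11.6 CPM at 3 months and 2.35, 28.8 and 3.31 CPM at 9 months. The summed 3-month counts, scaled for depth, were at least 22.1-fold higher in exposed livers, counting 3 reads over both controls as the floor. That bound pools the libraries and takes no account of the spread between them. Across both times the adjusted p was 0.259 in edgeR. Cry2, a cryptochrome gene, ran from 18.4 to 29.8 CPM in controls and from 31.2 to 53.1 CPM in exposed livers, with a shared log2 fold change of 0.72 ± 0.25 and an adjusted p of 0.754.

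Per2 had a shared log2 fold change of 1.65 ± 0.53, Bhlhe40 of 1.27 ± 0.37 and Nr1d1 of 1.09 ± 0.39, each with an unadjusted p under 0.05 and some overlap between groups. Per1 (0.58 ± 0.44) and Cry1 (-0.20 ± 0.59) had unadjusted p of 0.214 and 0.738 in edgeR, and the sign of Cry1 turned without 3-month control 3. Per1 had 1.16 without that control, 0.37 without 3-month control 2 and 0.28 without 9-month control 1. Bhlhe41, which encodes a further repressor of the pair, was counted at 0 to 1.55 CPM in controls and 1.5 to 4.96 CPM in exposed livers.

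Nr1d2 measured 185 and 141 CPM in the controls at 3 months, and 137 and 114 CPM at 9 months. Exposed livers had 266, 319 and 434 CPM at 3 months and 304, 449 and 293 CPM at 9 months, and none overlapped with a control. The shared log2 fold change was 1.27 ± 0.24 with an adjusted p of 0.127 in edgeR. The log2 fold changes were 1.06 ± 0.32 at 3 months and 1.48 ± 0.32 at 9 months.

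On the activating arm the values ran the other way. Arntl had 102 and 82.7 CPM in the 3-month controls against 13.7, 6.14 and 0.523 CPM in exposed livers. At 9 months the controls had 12.6 and 23.7 CPM and the exposed livers 4.87, 4.90 and 0.827 CPM. The groups were apart at each time, though exposed liver 1 at 3 months was above 9-month control 1. The shared log2 fold change was -3.12 ± 0.61 with an adjusted p of 0.135 in edgeR.

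Clock had a shared log2 fold change of -0.89 ± 0.27. Npas2 was counted 84 times in controls and 6 times in exposed livers. At 9 months its summed counts, scaled for depth, were at least 24.7-fold lower against a floor of 3 reads, with no reads in the 3 exposed livers. This bound too leaves out the spread between libraries. Rora encodes an activator of Arntl and had a shared log2 fold change of -0.27 ± 0.27, made of -0.87 at 3 months and 0.40 at 9 months.

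Nfil3, the repressor at D-boxes, measured 81.2 and 187 CPM in the controls at 3 months, and 33.0 and 46.5 CPM at 9 months. Exposed livers had 5.4, 30.6 and 8.77 CPM at 3 months and 18.4, 18.5 and 12.6 CPM at 9 months, all below every control. Its shared log2 fold change was -2.29 ± 0.48 with an adjusted p of 0.176 in edgeR. Hlf, the third relative of Dbp and Tef, had a shared log2 fold change of 0.51 ± 0.37, which was 1.11 without 3-month control 2 and 0.23 without 3-month control 3. The kinase genes Csnk1d and Csnk1e, whose products mark PER proteins for breakdown, had -0.35 ± 0.19 and 0.76 ± 0.70, the latter 0.46 without 3-month control 2. Per3, Ciart, Nr1d2, Arntl and Nfil3 each passed with DESeq2 (adjusted p of 0.00512, 0.00075, 0.000122, 0.000217 and 0.00111). They also passed with no filter on low counts, where pancreas genes such as Cela2a and Cpb1 headed the 188 calls. Nr1d2 and Arntl passed with limma voom as well (adjusted p 0.00945 and 0.0455).

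**Figure D2:**
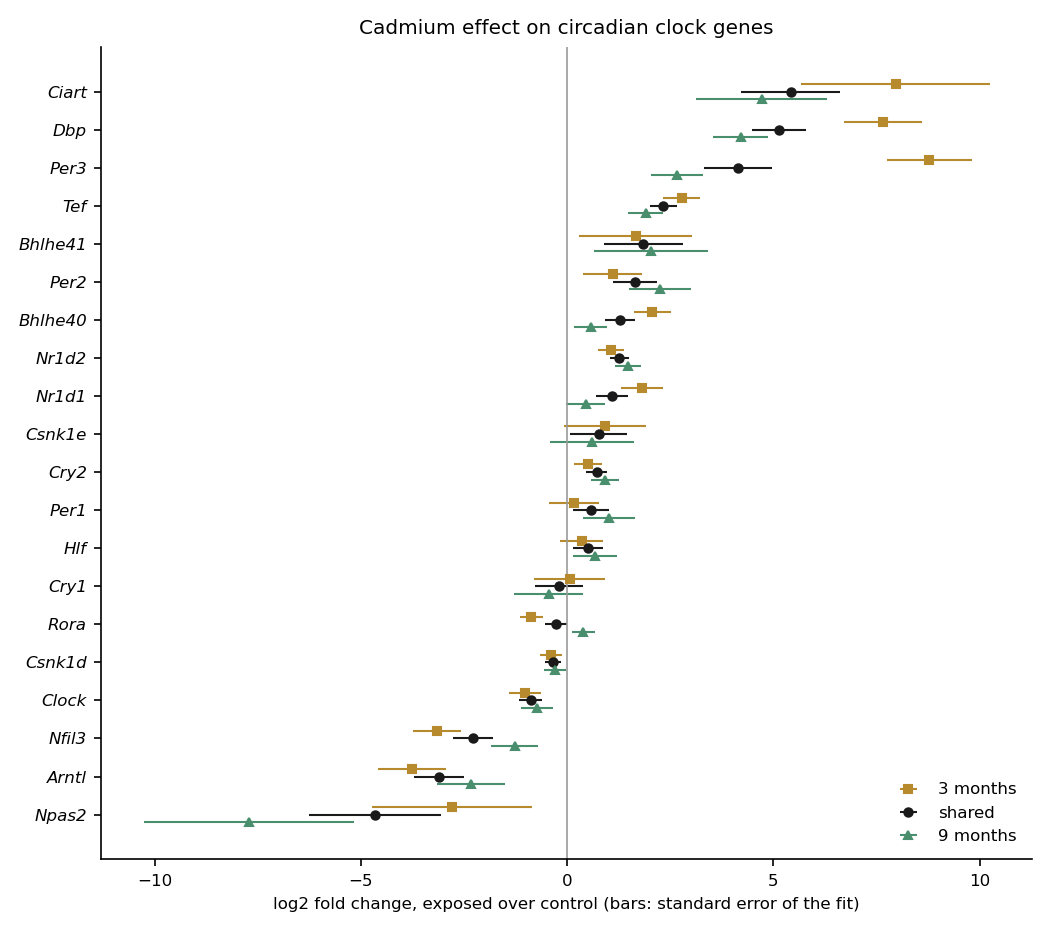
Fitted log2 fold changes (exposed over control, with the standard error of the fit) of the clock genes described in the text at 3 months, at 9 months and shared by both times. The genes run from Ciart to Npas2 by shared effect, and 19 of the 21 listed genes have the same sign at both times. The 3-month values of Dbp, Per3 and Ciart and the 9-month value of Npas2 rest on a group with at most 1 read and are no measure of size.

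**Figure D3:**
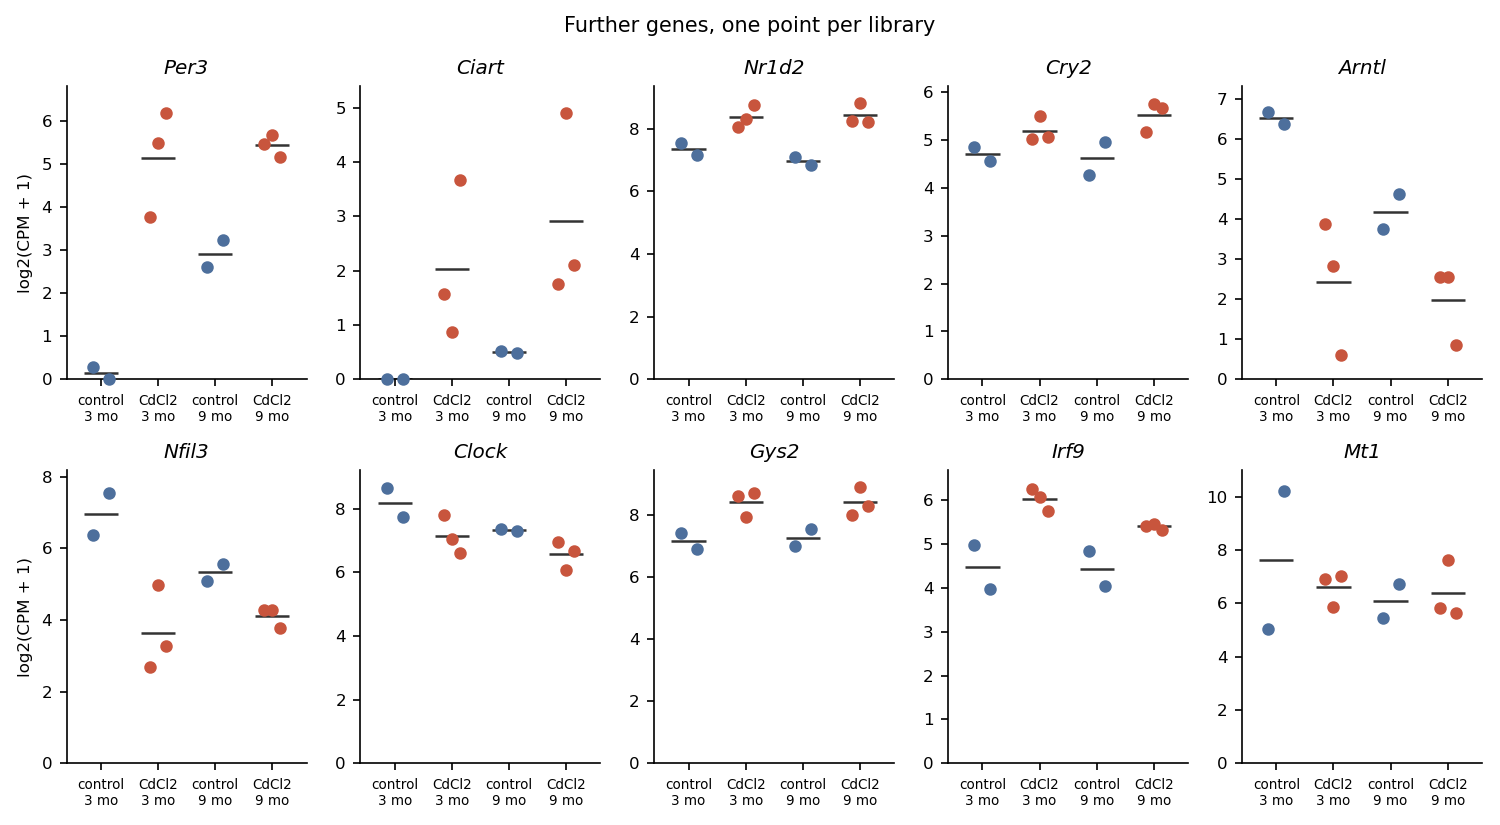
Abundance of 10 further genes on the log2(CPM + 1) scale, one point per library and a line at each group's mean. Per3, Ciart, Nr1d2, Cry2, Gys2 and Irf9 were higher and Arntl and Nfil3 lower in every exposed liver than in both controls of that time, while Clock overlapped and the Mt1 controls spanned 32.1 to 1193 CPM.

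The effects at 3 and at 9 months come from separate libraries, so they can be set beside each other gene by gene. Over all 14067 genes, 46.9% had the same sign at both times, and across genes, which are not independent replicates, the Pearson correlation was 0.029 and the Spearman correlation -0.025. Among the 90 genes with an unadjusted p under 0.05 at both times, 61.1% had the same sign. Clock genes had it in 19 of 21, with Cry1 and Rora the exceptions. Under the alternatives in which this was recomputed, the count for clock genes was 17 to 20 and the share over all genes 39.98% to 49.99%. Another 430 genes (3.06%) were apart at both times but in opposite directions, against 193 genes higher and 196 lower at both times.

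No gene passed an adjusted p of 0.05 for the difference between the times in edgeR (0%), while 1325 genes (9.42%) had an unadjusted p under 0.05. DESeq2 called 41 and limma voom with library weights called 0. The smallest adjusted p in edgeR was 0.418. Among the genes with the smallest p were Pdap1 and Nudt1, which encodes an enzyme that hydrolyses oxidised nucleotides. Pdap1 had 2.32 and 3.52 CPM in the 3-month controls against 17.6, 18.6 and 32.2 CPM in exposed livers, and 30.1 and 32.2 CPM in the 9-month controls against 28.9, 16.0 and 12.6 CPM. Both genes had all exposed livers above the controls at 3 months and all below them at 9 months. The count for the difference was 321 without 3-month control 2 and 587 without 3-month control 3, and 0 without each of the other 8 libraries.

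**Figure D4:**
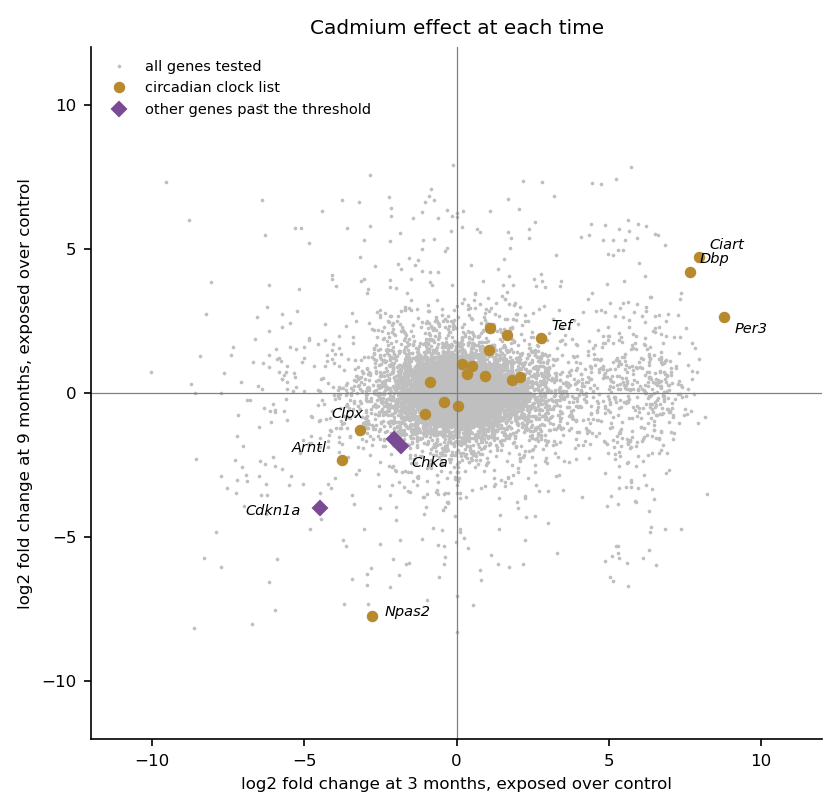
Fitted log2 fold changes (exposed over control) at 3 months on the horizontal axis and at 9 months on the vertical axis, one point per gene tested. Clock genes (ochre) and Cdkn1a, Chka and Clpx (violet) lie mostly where the signs match, at the upper right and lower left, as 46.9% of all genes do.

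Genes of glycogen and galactose use were among the list members that separated by exposure without passing in edgeR. Gys2, the liver glycogen synthase gene, measured 167 and 119 CPM in the controls at 3 months, and 125 and 183 CPM at 9 months. Exposed livers had 383, 240 and 410 CPM at 3 months and 255, 471 and 312 CPM at 9 months, with no overlap and a shared log2 fold change of 1.22 ± 0.25 (adjusted p 0.176 in edgeR). Galk1, the galactokinase gene, had shared and 9-month log2 fold changes of 1.28 ± 0.33 and 0.50 ± 0.30. Both genes passed with DESeq2 (adjusted p 0.00133 and 0.0423) and with no filter on low counts (0.000664 and 0.00377), and Galk1 passed with the average of both times (0.045). The list of glucose and fasting genes had a median of -0.41. At an unadjusted p under 0.05, 2 of 23 members were higher and 4 lower, against 2.76% and 3.02% of all genes. The lower ones included Igfbp1 and G6pc, the glucose-6-phosphatase gene. Their log2 fold changes were -0.99 and -0.32 at 9 months against -6.08 and -2.36 at 3 months. The shared log2 fold change of Igfbp1 was -4.065, and -2.077 without 3-month control 3. Igfbp1 passed with the average of both times (adjusted p 0.0382) and G6pc with DESeq2 (0.0414). Both passed with no filter on low counts (3.34e-29 and 4.07e-05). Tat, among the most abundant members, had -0.68 ± 0.74.

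Cholesterol synthesis genes were mostly higher. The sign matched between the times for 15 of 24, and none had its groups apart at both times. Of 24 tested, 20 had a higher fitted level, the median was 0.49, and 8 were higher and 0 lower at an unadjusted p under 0.05, against 2.76% and 3.02% of all genes. None passed the adjusted threshold in edgeR, while Sqle and Fdft1 passed with no filter on low counts (adjusted p 0.000304 and 0.00191). Sqle, Fdft1 and Idi1, of the later and earlier steps, had log2 fold changes of 1.63 ± 0.57, 1.22 ± 0.34 and 1.70 ± 0.58. The count of 8 was 5 without exposed liver 3 at 3 months (median 0.30) or exposed liver 2 at 9 months (0.36), and 2 with both 3-month controls left out.

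In fatty acid and triglyceride synthesis, with a median of 0.23, 4 of 20 genes were higher and 1 lower at an unadjusted p under 0.05, against 2.76% and 3.02% of all genes. Fads2, a fatty acid desaturase gene, ran from 122 to 196 CPM in controls and from 208 to 339 CPM in exposed livers, without overlap. Its shared log2 fold change was 0.80 ± 0.21, with an adjusted p of 0.47 in edgeR and 0.0414 in DESeq2. Srebf1, which encodes the SREBP1 regulator of lipid synthesis, was higher (1.52 ± 0.53) and Agpat2 lower (-0.77 ± 0.24) in all exposed livers than in both controls of the same time. The most abundant members, Scd1 and Elovl5, had -0.02 ± 0.48 and -0.20 ± 0.30.

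All 15 tested immediate early genes had a lower fitted level, with a median of -0.93. Of them, 3 had an unadjusted p under 0.05, against 3.02% of all genes. These were Dusp1 (-0.93 ± 0.35), Btg2 (-1.30 ± 0.49) and Egr2 (-0.94 ± 0.35), and the groups of each overlapped. The sign was the same at both times for 6 of the 15, and the median was -0.35 without 3-month control 3, -0.30 without 9-month control 1, where 1 member had an unadjusted p under 0.05, and -0.55 without exposed liver 1 at 9 months. Egr1 and Jund, the most abundant members, had -0.33 ± 0.58 and -0.41 ± 0.27. Glucocorticoid targets had a median of -0.65 and 13 of 16 lower, but the median was 0.04 without 3-month control 3 and 0.34 without both 3-month controls, and the sign matched between the times for 4 of 16.

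Interferon response genes had a median of 0.43, with 12 of 18 higher. Of those 12, 3 had an unadjusted p under 0.05, or 16.7% of the list against 2.76% of all genes. Irf9, which encodes a subunit of the interferon-stimulated transcription complex, measured 30.6 and 14.7 CPM in the controls at 3 months, and 27.4 and 15.5 CPM at 9 months. Exposed livers had 75.3, 66.2 and 52.5 CPM at 3 months and 41.7, 42.8 and 39.1 CPM at 9 months, all above every control. The adjusted p of Irf9 was 0.269 in edgeR, and it passed with DESeq2 (0.0246) and with no filter on low counts (0.00506). Ifit3 had 15 reads in controls and 155 in exposed livers. Kupffer cell and macrophage markers were higher in 13 of 16. At an unadjusted p under 0.05 there was 1 (6.25%), against 5.78% of all genes in either direction. The markers summed to 405 to 575 CPM in controls and 430 to 776 CPM in exposed livers. None of these 16 markers was at 0 in every library, and their part in the interferon values was not tested.

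Acute phase genes had a median of -0.21, with 16 of 22 lower. Of those 16, 5 had an unadjusted p under 0.05, or 22.7% of the list against 3.02% of all genes. The fibrinogen genes Fga, Fgb and Fgg had shared log2 fold changes of -0.64 ± 0.26, -0.71 ± 0.26 and -0.91 ± 0.29, and without 3-month control 3 they had -0.25, -0.32 and -0.56. Fga measured 2074 and 4875 CPM in the controls at 3 months, and 1799 and 2044 CPM at 9 months, against 1611 to 1723 CPM over the 6 exposed livers. The most abundant members, C3 and Hpx, had -0.01 ± 0.22 and 0.08 ± 0.25. p53 targets had a median of -0.33. At an unadjusted p under 0.05, 4 of 20 were lower, Cdkn1a among them, against 3.02% of all genes.

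Metallothionein genes, whose products bind cadmium and zinc, did not pass for the shared effect, with adjusted p of 0.905 for Mt1 and 0.907 for Mt2 in edgeR. Mt1 measured 32.1 and 1193 CPM in the controls at 3 months, and 42.5 and 104 CPM at 9 months. Exposed livers had 119, 56.9 and 130 CPM at 3 months and 56.2, 196 and 49.4 CPM at 9 months, within the range of the controls. Its shared log2 fold change was -1.25 ± 0.83 and turned to 0.87 without 3-month control 3. Mt2 had -1.66 ± 1.16 and 1.42 in the same order. With no filter on low counts both passed as lower (adjusted p 0.00236 and 5.68e-05). The 188 calls of that setting were headed by pancreas genes, which were high in few libraries. Of 19 metal handling genes, 0 were higher and 2 lower at an unadjusted p under 0.05, against 2.76% and 3.02% of all genes. The 2 were the manganese exporter gene Slc30a10 (-1.14 ± 0.38) and the transferrin receptor gene Tfrc (-0.82 ± 0.30). The alternatives gave 1 (without 3-month control 3) to 7 (with no filter on low counts) at that level. The most abundant members, Trf and Ftl1, had 0.05 ± 0.22 and 0.55 ± 0.35.

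None of 18 tested m6A machinery genes had an unadjusted p under 0.05 in edgeR, against 0 to 3 under the alternatives (3 without both 3-month controls), and the median was -0.14 (-0.24 to 0.06 under them). Mettl3, the m6A methyltransferase gene, ran from 5.84 to 13.9 CPM in controls and from 3.93 to 11.4 CPM in exposed livers, and its log2 fold change was -0.20 ± 0.44. Mettl14, the gene of its partner, ran from 0 to 5.57 CPM in controls, and in exposed livers it ran from 0.827 to 6.8 CPM. The log2 fold change of 1.14 ± 1.02 turned to -0.23 without both 3-month controls. The most abundant members, Alkbh5 and Hnrnpa2b1, had -0.13 ± 0.20 and 0.02 ± 0.18.

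NRF2 and glutathione genes had a median of 0.03, with 3 of 27 higher at an unadjusted p under 0.05, against 2.76% of all genes. Gpx1, the glutathione peroxidase gene, was the one member apart at both times, with 823 to 1759 CPM in controls and 1552 to 2102 CPM in exposed livers, and Cat, the catalase gene, had a log2 fold change of -0.08 ± 0.32. PPARA targets had a median of 0.15, 0.69 at 3 months and -0.16 at 9 months. At that level 2 of 29 were higher and 1 lower, against 2.76% and 3.02% of all genes. Cyp4a14, among the most abundant members, had -0.36 ± 0.80. Daily rhythm outputs, genes that follow the clock without being part of it, had a median of 0.11. At that level 3 of 19 were higher and 4 lower, or 36.8% against 5.78% of all genes. Among the pathway lists only the clock list had a larger share. The sign matched between the times for 12 of the 19. Avpr1a, a vasopressin receptor gene, was lower in all exposed livers than in both controls of the same time (-1.35 ± 0.32). Its adjusted p was 0.357 in edgeR, and it passed with DESeq2 (0.0251) and with no filter on low counts (8.48e-05). The most abundant members, Por and Upp2, had 0.11 ± 0.60 and 2.13 ± 1.08.

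The other 13 pathway lists had medians from -0.40 (urea cycle and glutamine) to 0.13 (heat shock). At most 3 members of each had an unadjusted p under 0.05. The largest share was 20% (S-adenosylmethionine cycle), against 5.78% of all genes. Of the members of these lists, Xbp1, a transcription factor gene of the unfolded protein response, was higher (0.88 ± 0.23). Stat5b, which encodes the transcription factor of growth hormone signalling, was lower (-0.58 ± 0.22). Each was so in all exposed livers against both controls of the same time. Neither passed the adjusted threshold in edgeR, with adjusted p of 0.446 and 0.812, while Xbp1 passed with DESeq2 (adjusted p 0.0278).

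**Figure D5:**
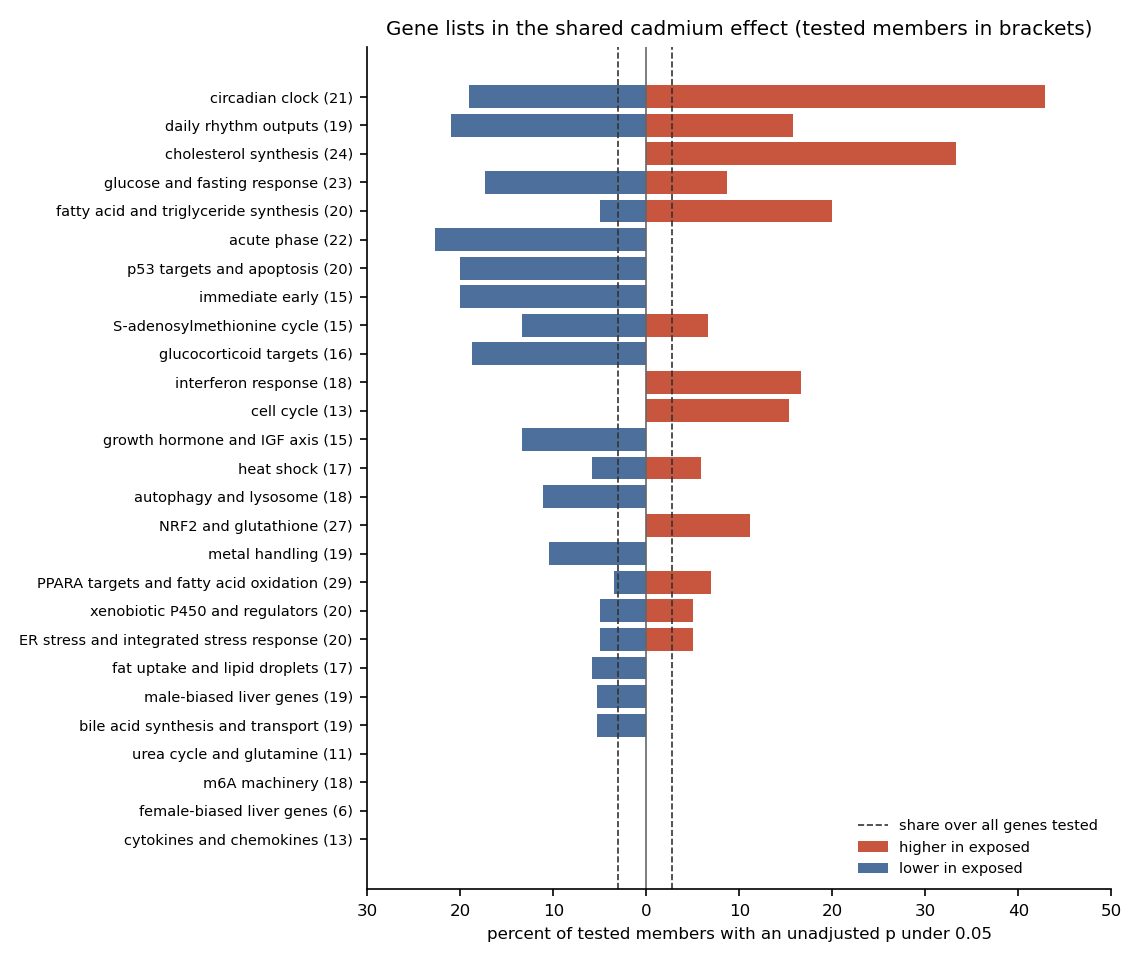
Percent of tested members with an unadjusted p under 0.05 for the shared effect in 27 gene lists, higher in exposed livers to the right and lower to the left, with the number of tested members in brackets. Dashed lines mark the share over all genes, 2.76% higher and 3.02% lower, and the clock list has the largest share, with 9 of 21 members higher and 4 lower.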

How the data were processed

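Liver RNA was measured in the input libraries of an m6A sequencing series. Raw read counts for each RefSeq transcript, not normalised, were deposited, per the file headers. It also holds deposited TPM per transcript, which were not used in any test. The submitters' processing notes name bcl2fastq, TopHat2 2.0.13, MACS2 2.1.0.20151222 and the builds hg19, mm10 and rn6. The sources used here state neither the read counter nor the strand setting, so overlapping and antisense genes cannot be told apart. A further 12 columns, of 6 libraries, match no sample and were not used.

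Each of 21769 genes was represented by its most counted transcript, by total over the 10 libraries. Counts were filtered with filterByExpr by the 4 groups, scaled by TMM and fitted with edgeR 4.0.16 (R 4.3.3) by quasi-likelihood as time plus exposure (common dispersion 0.335, with 8.07 prior and 7 residual degrees of freedom). The difference used time by exposure, and effects within a time used 4 groups. Tests were two-sided with Benjamini-Hochberg adjustment over all genes, and the code was tested on simulated counts. DESeq2 1.42.0, limma 3.58.1, other filters and scalings, and leaving out libraries were alternatives. Figures used matplotlib 3.10.9.

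The 37 lists hold 630 symbols, of which 550 were tested. The members and lists were chosen with earlier results of these data known. The text names genes past the threshold, Mt1, Mt2, Mettl3 and Mettl14, list members that passed or the 2 most abundant, members apart at both times, and the 3 smallest p for the difference, except that some genes are not reported here. Other members, named for an unadjusted p under 0.05 or as clock genes, were chosen after their values were seen. Same-numbered controls and exposed livers had deviations from their group means that correlated at 0.01 and -0.009 at 3 months and -0.164 and -0.058 at 9 months. With 2 controls at each time, the deviations of the controls mirror each other, so these correlations cannot decide on pairing. No label says that the numbers mark pairs, and they were not taken as such. No 2 libraries held identical counts.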

Additional observations from a re-analysis of the deposited data

Results flagged for a closer look

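The summed CPM of marker lists and the CPM of 9 named genes were screened for a library far from the rest among the 4 controls and among the 6 exposed livers, 38 groups in all, on a log2 scale with 1 added. Chance flags about 1 in 20 groups, and 3 were flagged. The pancreas list stood high in exposed liver 1 at 9 months, with a gap to the next library of 0.784 of the range. The lymphocyte list stood low in exposed liver 3 at 3 months, with 11.5 CPM and a gap of 0.814 of the range. The stellate cell and fibroblast list stood low in 3-month control 3, with 456 CPM against 497 to 501 CPM and a gap of 0.911 of the range.

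For 3 named genes the exposed livers were entirely above both controls at one time and entirely below them at the other. The log2 effect at 9 months minus that at 3 months was 1.26 for Rora, -3.63 for Pdap1 and -5.68 for Nudt1. In edgeR the adjusted p of these differences was 0.443 for Rora and 0.418 for Pdap1 and Nudt1, so none passed. Rora had 416 and 493 CPM in the 3-month controls against 213 to 311 CPM in exposed livers, and 171 CPM in both 9-month controls against 185 to 274 CPM.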

How the results depend on the processing

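The shared effect gave 5 genes and its alternatives 48 with DESeq2, 11 with limma voom and library weights, 188 with no filter on low counts, 0 with counts summed over transcripts, 9 with the average of both times, 1 without both 3-month controls, 3 without the libraries with most pancreas RNA, 0 at 3 months alone and 1 at 9 months alone. Leaving out each library gave 0 to 6. With no filter, the calls were headed by pancreas genes, whose list summed to 10010 CPM in 9-month control 2. The difference between the times gave 0 genes, 41 with DESeq2 and 208 with no filter, and 0 to 587 with each library left out. The causes were not tested. With the replicate number as a block the shared effect gave 6 genes, 5 of them as before and Cyp2a5 added, and the difference 0, and the block changed no other call among these. No label says that the numbers pair the samples. Of 51 genes recomputed, 45 kept their sign throughout. Over single libraries left out, Mt1 ran from -1.82 to 0.87 (without 3-month control 3), Mt2 from -2.40 to 1.42 (the same control), Mettl3 from -0.39 to 0.074 (without 3-month control 2) and Cry1 from -0.73 to 0.23 (without 3-month control 3). Without both 3-month controls Mt1 was 0.45, Mt2 0.58, Mettl14 -0.23 and Rora 0.40, and at 9 months alone 0.45, 0.58, -0.24 and 0.39. With voom Mettl14 was -0.10 and Rora 0.057. With the block Mt2 was 0.46 and Cry1 0.28, and at 3 months alone Cry1 was 0.071. Genes with few reads in a group, such as Dbp, Ciart and Npas2, carry wide counting errors.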
